A study of Mus musculus with 2 samples.

Results

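The *Mmp13*/*Pf4*-rich macrophages were 573 cell barcodes of the 6547 deposited from sorted myeloid cells of mouse colorectal polyps, 329 of 3467 in the library of wild-type (WT) mice and 244 of 3080 in the library of *Clec7a*-/- mice. They were chosen by a rule on transcripts, counted by unique molecular identifiers (UMIs, one per captured mRNA molecule). A barcode entered when it held 200 to 4000 detected genes and no more than 10% mitochondrial UMIs, which 3147 WT and 2702 *Clec7a*-/- barcodes did. It then needed a summed level of *C1qa*, *C1qb* and *C1qc* of 20 or more UMIs per 10000, a summed level of *S100a8* and *S100a9* under 80, and a summed level of *Mmp13*, *Pf4*, *Adamdec1* and *Dnase1l3* (here the 4-gene score) of 10 or more. The first 2 conditions alone gave 788 WT and 530 *Clec7a*-/- C1q macrophages, and the 459 and 286 of these with a lower 4-gene score served as the other C1q macrophages. The levels of these 9 genes chose the cells, so they are given below as a description.

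Both libraries came from mice of strain C57BL/6J, 26 weeks old, given azoxymethane (AOM), a colon carcinogen, and then drinking water with 1% dextran sodium sulfate (DSS, which injures the colonic epithelium) in 3 cycles and were taken 16 weeks into the protocol. *Clec7a* encodes Dectin-1, a receptor for fungal beta-glucans; the *Clec7a*-/- mice carried a germline deletion, so that every cell of the mouse lacked it, and had been backcrossed to C57BL/6J, while the WT mice were descended from bought C57BL/6J mice and kept in the same animal room. Some WT mice of the study shared cages with *Clec7a*-/- mice and others did not, and which held for these libraries is not given in the sources used here. Polyp cells of several mice were pooled for each genotype and sorted for CD11b and CD11c, so each genotype was 1 library, no mouse can be told from another, and differences between the libraries hold genotype, mice and preparation together. The WT library held 15869215 UMIs (median 3246 per barcode) and the *Clec7a*-/- library 11808230 (median 2697). *Clec7a* itself was not analysed here, so the genotype labels were not checked against it. The libraries shared 17 barcode sequences, of which 3 were among the WT and 1 among the *Clec7a*-/- *Mmp13*/*Pf4*-rich macrophages.

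C1q, the recognition molecule of the classical complement pathway, is made largely by tissue macrophages, and in the gut it marks the mature macrophages of the lamina propria, which take up dying cells and present antigen. Collagenases such as MMP13 cut fibrillar collagen, and macrophages that make them take part in the turnover of matrix in wounds and tumours. PF4 and PPBP are chemokines best known from platelet granules, and *Pf4* is also transcribed by some tissue macrophages.

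The start-site sequences of *Mmp13*, *Pf4* and *Ppbp* are shown because the first pair heads the rule and because *Ppbp*, the neighbour of *Pf4*, was among the genes that most set these cells apart. Each runs 5′ to 3′ on the plus strand from 250 bases before to 50 bases after the start of the gene (RefSeq, GRCm38.p6), at chr9:7272264-7272563, chr5:90772185-90772484 and chr5:90768268-90768567. Capitals mark matches on either strand to 3 motifs that were searched, an AP-1 motif with the letters TGANTCA (bound by Fos and Jun proteins), an ETS motif with the letters GAGGAAGT (bound by the myeloid factor PU.1) and a motif of the GATA factors with the letters AGATAA. None of the motifs overlapped another in these windows.
Mmp13: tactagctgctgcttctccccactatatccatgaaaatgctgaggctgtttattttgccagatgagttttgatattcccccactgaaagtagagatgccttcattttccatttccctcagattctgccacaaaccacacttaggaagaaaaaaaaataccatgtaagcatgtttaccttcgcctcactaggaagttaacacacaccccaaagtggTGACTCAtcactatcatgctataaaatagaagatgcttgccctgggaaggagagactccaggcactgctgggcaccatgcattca
Pf4: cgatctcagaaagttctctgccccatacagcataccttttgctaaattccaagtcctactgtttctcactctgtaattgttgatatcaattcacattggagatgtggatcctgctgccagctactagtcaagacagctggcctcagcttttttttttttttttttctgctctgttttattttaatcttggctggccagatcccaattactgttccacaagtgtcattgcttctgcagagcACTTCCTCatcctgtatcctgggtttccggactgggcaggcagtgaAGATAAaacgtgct
Ppbp: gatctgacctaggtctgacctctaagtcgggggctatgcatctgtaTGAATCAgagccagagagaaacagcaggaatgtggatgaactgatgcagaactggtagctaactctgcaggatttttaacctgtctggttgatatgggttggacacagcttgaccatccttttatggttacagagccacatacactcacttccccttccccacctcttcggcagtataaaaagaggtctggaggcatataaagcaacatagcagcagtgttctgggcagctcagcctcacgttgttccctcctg
The *Mmp13* window held an AP-1 match at -35 from the start, that of *Pf4* an ETS match at -10 and a GATA match at +37, and that of *Ppbp* an AP-1 match at -204. Of 27025 promoter windows of this length, 7.93% held the AP-1 letters, 3.28% the ETS letters and 11.4% the GATA letters, and a match is a description of the letters only. *Ppbp* and *Pf4* lie side by side on chromosome 5, with starts 3917 bases apart on the same strand.

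The 6 markers of the label, *C1qc*, *Apoe*, *Mmp13*, *Pf4*, *Adamdec1* and *Dnase1l3*, were all detected in both libraries, which for the rule's genes follows from the choice of cells. Of these only *Apoe*, the lipid carrier apolipoprotein E, lay outside the rule, and it was found in 325 of the 329 WT and 243 of the 244 *Clec7a*-/- cells. Its log2 ratio over the other C1q macrophages was 0.50 in WT and 0.52 in *Clec7a*-/-, so it did not set these cells apart past 2-fold. *Mmp13* (chr9:7272514-7283331, plus strand, mm10) had a UMI in 266 WT and 165 *Clec7a*-/- cells, *Pf4* (chr5:90772435-90773383, plus strand) in 214 and 173, *Adamdec1* (chr14:68563380-68582095, minus strand), which encodes a secreted metalloprotease of the ADAM family, in 207 and 142, and *Dnase1l3* (chr14:7964533-7994573, minus strand), which encodes a secreted DNase, in 219 and 165. The 4 genes were therefore not always found together. All 4 had a UMI in 87 WT (26.4%) and 59 *Clec7a*-/- cells (24.2%), 3 of them in 117 and 75, 2 in 82 and 74, and only 1 in 43 and 36. The median cell held 15 UMIs of the 4 genes in WT and 13 in *Clec7a*-/-, and 10 WT and 3 *Clec7a*-/- cells were admitted on 1 UMI.

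To see past the depth of the cells, each was thinned to 1000 UMIs, which kept 306 WT and 227 *Clec7a*-/- *Mmp13*/*Pf4*-rich macrophages (median depth before thinning 7732 and 6303 UMIs). *Mmp13* then had a UMI in 54.9% of WT and 44.5% of *Clec7a*-/- cells, *Pf4* in 27.1% and 41.8%, *Adamdec1* in 30.4% and 33.9%, and *Dnase1l3* in 35.6% and 41.0%. T cells of the same libraries, which should lack these transcripts, served as a measure of free RNA (54 and 111 cells, median depth 2209 and 1871 UMIs). Their shares were 0% for *Mmp13* in both libraries (exact upper limits 6.60% and 3.27%), 0% and 1.80% for *Pf4*, 0% and 0.901% for *Adamdec1*, and 1.85% and 0.901% for *Dnase1l3*. The shares in the *Mmp13*/*Pf4*-rich macrophages follow from the rule, and those in T cells give the level that free RNA reached in the T cells chosen. These had a C1q level under 20 by definition. Barcodes with more macrophage RNA were thus left out, and the shares may understate free RNA. *S100a9*, the neutrophil transcript limited by the rule, did occur widely outside neutrophils, with a UMI in 29.6% and 26.1% of the thinned T cells.

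There was no gap in the 4-gene score at the threshold. The lowest score inside was 10.0 in WT and 10.1 in *Clec7a*-/-, and the highest outside 9.99 and 9.94. Scores from 10 to 12 were held by 40 WT and 31 *Clec7a*-/- cells inside, and scores from 8 to 10 by 39 and 22 cells outside. The median score was 22.2 and 22.3 inside and 2.53 and 2.19 outside, and 149 WT and 111 *Clec7a*-/- C1q macrophages held no UMI of the 4 genes. The *Mmp13*/*Pf4*-rich macrophages are thus the upper range of a score with no gap at the threshold, and no clustering was run.

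**Figure D1:**
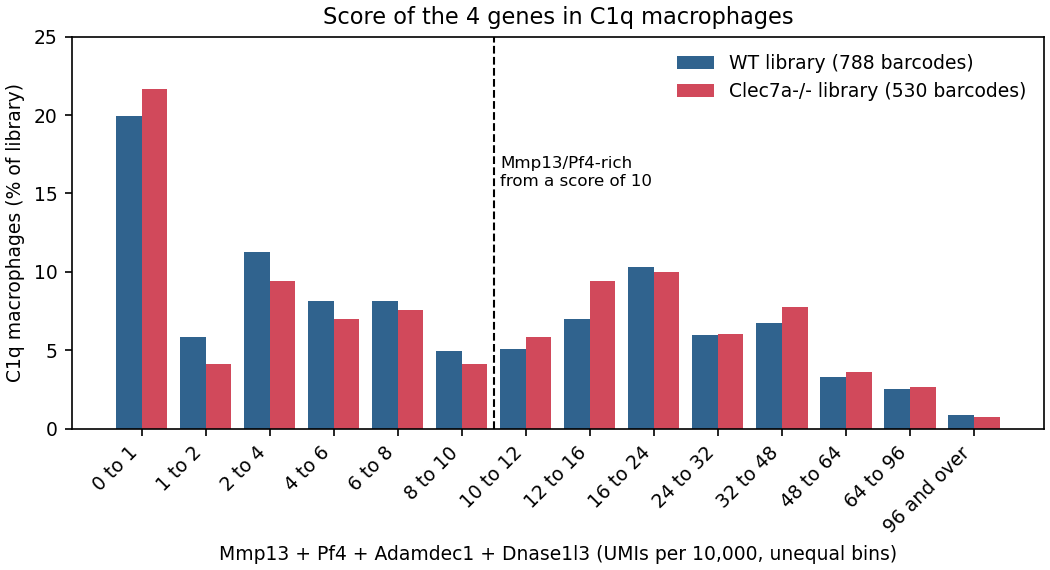
Share of the C1q macrophages of each library (y axis, % of 788 WT or 530 *Clec7a*-/- barcodes) by 4-gene score (x axis, UMIs per 10000, bins of unequal width). The dashed line marks the threshold of 10, and the bars run on across it in both libraries.

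Of the 3147 WT barcodes within the limits on genes and mitochondrial UMIs, the *Mmp13*/*Pf4*-rich macrophages made up 10.5% (95% interval 9.41 to 11.6%). Of the 2702 such *Clec7a*-/- barcodes they made up 9.03% (7.98 to 10.2%). Of the C1q macrophages they were 41.8% in WT (38.3 to 45.3%) and 46.0% in *Clec7a*-/- (41.7 to 50.4%). The 2 denominators pointed opposite ways, and neither difference exceeded counting error, at -0.21 (-0.46 to 0.032) and 0.14 (-0.10 to 0.38) on the log2 scale. C1q macrophages as a whole were 25.0% of the WT (23.5 to 26.6%) and 19.6% of the *Clec7a*-/- barcodes (18.1 to 21.2%) within the same limits. These intervals, and all below, are exact 95% intervals (Clopper-Pearson for shares, Poisson for levels, binomial for ratios) and cover counting error only, not the spread between cells or mice. With 1 library per genotype no test of genotype was possible, and none was made.

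The *Mmp13*/*Pf4*-rich macrophages were somewhat deeper than the other C1q macrophages, with a like mitochondrial share. The median *Mmp13*/*Pf4*-rich macrophage held 6938 UMIs in WT and 5867 in *Clec7a*-/-, against 5884 and 5146 for the other C1q macrophages. Their mitochondrial share had a median of 4.07% and 4.13%, against 4.06% and 4.17%. The summed C1q level had a median of 85.2 and 98.7 UMIs per 10000 inside and 74.8 and 82.0 outside.

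Summed over cells, *Mmp13* stood at 1215 UMIs per 1000000 (CPM) in the WT and 965 in the *Clec7a*-/- *Mmp13*/*Pf4*-rich macrophages, against 100 and 64.4 in the other C1q macrophages. *Pf4* stood at 515 and 716 against 135 and 141, *Adamdec1* at 508 and 425 against 49.4 and 47.5, and *Dnase1l3* at 614 and 791 against 84.3 and 79.5. These gaps follow from the rule. The cells also carried most of each transcript in the whole sort, namely 81.3% and 88.4% of all *Mmp13* UMIs, 70.2% and 78.8% of *Pf4*, 83.5% and 85.9% of *Adamdec1*, and 68.1% and 62.8% of *Dnase1l3*.

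What the rule did not use was then compared with the other C1q macrophages, in each library apart. Of 6622 genes with 100 UMIs or more in the C1q macrophages, 32 (0.483%) were past 2-fold higher and 9 (0.136%) past 2-fold lower in both libraries, and for all 41 the counting interval excluded equality in both. The median log2 ratio over all genes was -0.03 in WT and -0.04 in *Clec7a*-/-. Among the higher genes were secreted factors, namely chemokines (*Ccl8*, *Ccl7*, *Ppbp*, *Cxcl9*), proteases (*Mmp9*, *Htra1*), a vascular growth factor (*Pgf*), a terminal complement component (*C6*) and a phospholipase (*Pla2g2d*). Genes that were lower included *S100a4*, *S100a6*, *Cd34*, *Ccl17* and *Ccr7*. Under every alternative run, 13 of the 32 and 1 of the 9 kept ratios past 2-fold in both libraries. The like direction in both libraries is part of how the genes were picked, and the counting intervals are those of the ratios picked for their size. Neither is separate evidence.

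*C6*, a component of the membrane attack complex, had 64 UMIs in the WT and 83 in the *Clec7a*-/- *Mmp13*/*Pf4*-rich macrophages (25.9 and 52.4 CPM), and 5 and 2 UMIs in the other C1q macrophages. The log2 ratio was 3.85 in WT (2.68 to 5.64) and 5.08 in *Clec7a*-/- (3.49 to 8.46). The *Clec7a*-/- ratio was 3.04 after thinning to 2000 UMIs and 3.29 with a 4-gene score of 20 or more. *C6* was carried by 32 cells of each library, the highest with 8 and 9 UMIs. The 10 richest cells held 60.9% and 59.0% of its UMIs, so its level, too, rested on a minority of the cells.

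*Ccl8* and *Ccl7* encode monocyte chemoattractants and lie near each other on chromosome 11. *Ccl8* stood at 36.8 and 48.0 CPM against 3.29 and 3.75, log2 ratios of 3.42 (2.54 to 4.59) and 3.57 (2.49 to 5.17), which were 2.26 and 2.82 after thinning to 1000 UMIs and 1.85 and 1.94 after thinning to 2000. *Ccl7* had only 9 UMIs in WT, in 5 cells, against 1 in the other C1q macrophages (log2 ratio 2.96, 0.61 to 8.92), and 78 UMIs against 18 in *Clec7a*-/- (2.10, 1.38 to 2.96). The WT value of *Ccl7* turned negative when the 4-gene score had to reach 20 and when cells were thinned to 1000 UMIs, so its direction in WT was not settled. Wherever a ratio is given after thinning, the rule was applied anew to the thinned cells, so that both the depth and the membership differed (390 WT and 264 *Clec7a*-/- cells at 1000 UMIs, 316 and 228 at 2000).

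*Ppbp* (chr5:90768518-90770063, plus strand) stood at 274 CPM in WT and 185 in *Clec7a*-/-, against 39.2 and 8.13, log2 ratios of 2.80 (2.52 to 3.10) and 4.46 (3.71 to 5.43). With cells thinned to 2000 UMIs the WT ratio was 0.912, no longer past 2-fold, and with a 4-gene score of 5 or more or of 20 or more it was 1.90 and 1.91. In *Clec7a*-/- the ratio was 2.55 with a 4-gene score of 20 or more. The transcript sat in a minority of the cells: 49 of the 329 WT and 32 of the 244 *Clec7a*-/- cells had it, and the 10 richest held 80.2% and 81.9% of its UMIs. Of the cells with *Ppbp*, 44 of 49 in WT and 28 of 32 in *Clec7a*-/- also had a *Pf4* UMI, against 170 of 280 and 145 of 212 of the cells without it. The 7 platelet and megakaryocyte markers summed to 291 and 189 CPM, against 39.6 and 50.04 in the barcodes outside the C1q macrophages. *Ppbp* made up 677 of their 721 UMIs in WT and 293 of 299 in *Clec7a*-/-. Of the others, *Clec1b* had 27 and 1 UMIs, *Itgb3* 8 and 5, *Treml1* 5 and 0 and *Itga2b* 4 and 0, and *Gp9* and *Gp1bb* had none. The part of platelets in the level of *Ppbp* was not tested beyond these values.

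*Mmp9*, which encodes gelatinase B, stood at 968 and 889 CPM against 72.5 and 213, log2 ratios of 3.74 (3.54 to 3.95) and 2.06 (1.89 to 2.23). It was found in 94 WT and 83 *Clec7a*-/- cells, and the 10 richest held 55.8% and 47.4% of its UMIs. Thinning to 1000 UMIs lowered the ratios to 2.47 and 1.18. *Mmp9* is also a neutrophil transcript, and it made up 2395 of 3789 and 1407 of 2017 UMIs of the 10 neutrophil markers. That list as a whole stood at 1531 and 1274 CPM against 12040 and 2590 in the barcodes outside the C1q macrophages, and *Ly6g*, its defining marker, had 4 and 1 UMIs.

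Other secreted proteins were past 2-fold higher in both libraries as well. *Pgf*, a ligand of the VEGF receptor VEGFR1, stood at 197 and 152 CPM against 26.0 and 21.9 (log2 ratio 2.91, 2.57 to 3.28, and 2.78, 2.28 to 3.35) and was spread over 111 and 77 cells. *Htra1*, a secreted serine protease, stood at 49.3 and 58.1 against 7.25 and 4.38 (2.74, 2.10 to 3.49, and 3.64, 2.63 to 5.08). *Pla2g2d*, a secreted phospholipase A2, had 45 and 118 UMIs against 1 and 20 (5.22, 3.24 to 11.12, and 2.55, 1.88 to 3.34). After thinning to 1000 UMIs its ratios were 1.94 and 1.85. *Il18bp*, the soluble antagonist of interleukin-18, was higher by 1.41 and 2.78. *Cp*, the ferroxidase ceruloplasmin, was higher by 2.08 and 1.44, and *Ecm1*, a matrix protein, by 1.25 and 1.47. The ratios of *Ecm1* lay inside the 2-fold range under several alternatives, at 0.75 in WT against C1q macrophages without a UMI of the 4 genes and at 0.675 in *Clec7a*-/- after thinning to 1000 UMIs.

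Among surface and intracellular proteins, *Cd4*, the T helper coreceptor that gut macrophages can also carry, stood at 41.6 and 47.4 CPM against 8.89 and 10.0, a log2 ratio of 2.21 in both libraries (1.60 to 2.90 and 1.45 to 3.12). With cells thinned to 1000 UMIs its WT ratio was 0.564. Its *Clec7a*-/- ratio was 1.17 against C1q macrophages without a UMI of the 4 genes. The 8 T cell markers summed to 20 and 28 UMIs, with *Cd3d* at 1 and 0. *Spic*, the transcription factor of iron-recycling macrophages, was higher by 2.15 and 1.73, though by 0.313 in WT after thinning to 1000 UMIs and 0.835 in *Clec7a*-/- after thinning to 2000. *Tmem26* was higher by 2.19 and 2.02. *Npl*, an enzyme of sialic acid breakdown, was higher by 1.79 and 2.02, and *Lpar1*, a lysophosphatidic acid receptor, by 2.01 and 1.67. *Jaml*, an adhesion molecule, was higher by 2.14 and 1.69. *Fcgr4*, an activating IgG receptor, was higher by 1.39 and 1.46 (in *Clec7a*-/- by 0.978 after thinning to 2000 UMIs), and *Mrc1*, the mannose receptor, by 1.23 and 1.03. The value of *Mrc1* was 0.929 in WT after thinning to 2000 UMIs, and in *Clec7a*-/- 0.789 with 500 to 6000 detected genes and 0.992 with a C1q level of 40 or more.

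Of 9 interferon-stimulated genes measured, 2 were past 2-fold higher in both libraries, *Rsad2* and *Ifi47*, against 0.483% of all 6622 genes, and 7 had a ratio above 0 in both, as had 26% of all genes (36.1% were below 0 in both). The list's median was 0.43 in WT and 1.17 in *Clec7a*-/-. *Rsad2*, an antiviral enzyme, had 121 UMIs against 13 in WT (log2 ratio 3.46, 2.69 to 4.46) and 84 against 15 in *Clec7a*-/- (2.46, 1.70 to 3.40). Single cells weighed heavily in it: 17 and 15 cells had the transcript, and 1 cell held 50 and 57 of the UMIs. Without that cell and its counterpart among the others, the ratios were 3.06 and 1.55. The lowest of any alternative were 1.58 in WT, with a 4-gene score of 20 or more, and 1.36 in *Clec7a*-/-, with no more than 5% mitochondrial UMIs. *Ifi47* was at 1.36 in WT, and at 0.859 after thinning to 2000 UMIs. *Cxcl9*, an interferon-gamma-induced chemokine, had 92 UMIs against 51 in WT and 25 against 2 in *Clec7a*-/- (1.14, 0.64 to 1.67, and 3.36, 1.65 to 6.78), with 51 of the 92 in 1 cell. Leaving out the richest cell of each group gave 0.23 and 3.72, and thinning turned the WT value to -0.317 at 1000 UMIs and -0.37 at 2000.

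Of the 9 genes past 2-fold lower, *S100a4* and *S100a6*, calcium-binding proteins, stood at 40.8 and 58.1 CPM against 174 and 182, and at 135 and 128 against 333 and 331. Their log2 ratios were -2.09 (-2.41 to -1.78) and -1.64 (-2.00 to -1.30), and -1.30 (-1.48 to -1.12) and -1.37 (-1.61 to -1.13). *Cd34*, a sialomucin of progenitors and vessels, was at -2.49 and -2.39, but in WT at -0.269 with a 4-gene score of 5 or more, at -0.173 after thinning to 1000 UMIs and at -0.992 after thinning to 2000. *Ccl17*, a chemokine of dendritic cells, was at -2.97 and -1.61, and *Ccr7*, the receptor that guides them to lymph nodes, at -1.59 and -1.09. *F10*, coagulation factor X, was at -1.27 and -1.30, *Psat1*, of serine synthesis, at -1.25 and -1.17, *Nt5e*, the ectonucleotidase CD73, at -1.07 and -1.21, and *Slfn4* at -1.04 and -1.23. All 9 but *S100a4* and *S100a6* lay inside the 2-fold range under several alternatives, in WT at -0.249 for *Nt5e*, -0.444 for *Slfn4*, -0.57 for *Psat1*, -0.71 for *Ccl17*, -0.724 for *Ccr7* and -0.743 for *F10*. *S100a6* did so once, at -0.997 in WT after thinning to 1000 UMIs. The value of *Ccl17* in *Clec7a*-/- turned to 1.06 when the C1q level had to reach 40.

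**Figure D2:**
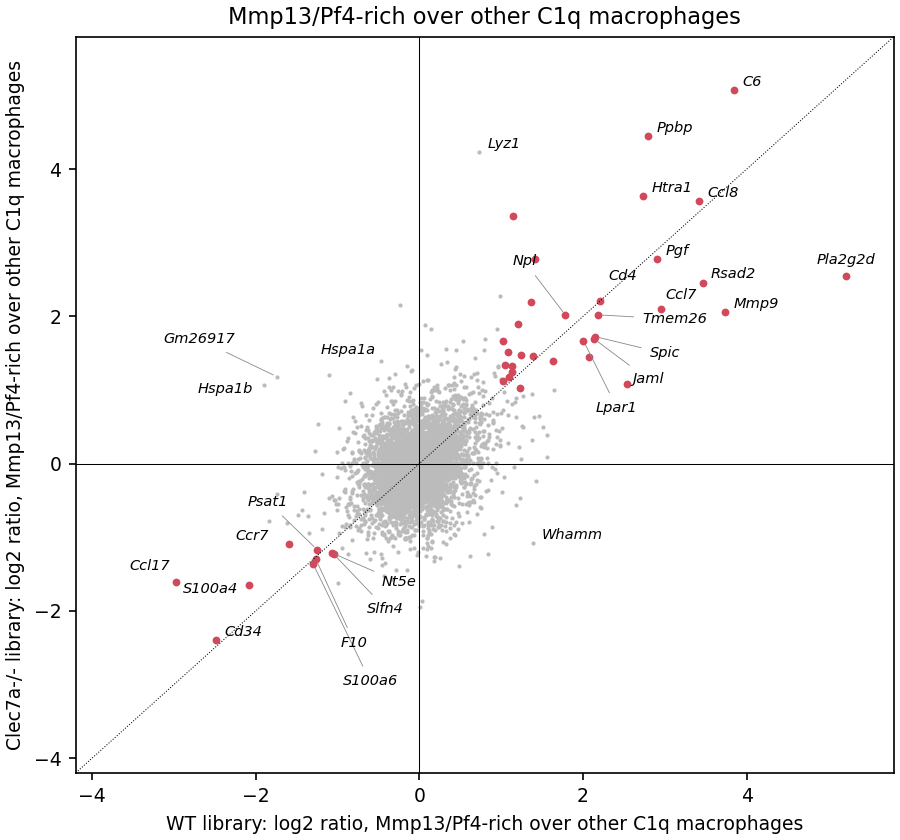
Log2 ratio of *Mmp13*/*Pf4*-rich over other C1q macrophages in the WT (x axis) and *Clec7a*-/- library (y axis), 1 point for each of 6622 genes, with the genes past 2-fold in both libraries in red and the dotted line marking equality. *C6*, *Ppbp*, *Ccl8*, *Htra1*, *Pgf* and *Mmp9* lie far up on both axes, whereas *Hspa1a*, *Hspa1b* and *Gm26917* lie low in WT and high in *Clec7a*-/-.

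Most pathway lists differed far less than 2-fold. Of 11 genes of MHC class II presentation none was past 2-fold, but 9 had a ratio above 0 in both libraries and none below 0 in both, with medians of 0.23 and 0.44. *H2-Ab1*, a class II beta chain, stood at 9928 and 9433 CPM against 6961 and 7021 (0.51, 0.49 to 0.54, and 0.43, 0.39 to 0.46), and *Cd74*, the invariant chain, was higher by 0.53 and 0.50. All 8 macrophage markers measured were above 0 in both libraries (medians 0.36 and 0.49). *Adgre1*, which encodes F4/80, was at 0.34 and 0.47 and *Csf1r*, the M-CSF receptor, at 0.38 and 0.23.

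The counts by list stand against 0.483% of all genes past 2-fold higher, 0.136% lower, 26% above 0 in both libraries and 36.1% below 0 in both. Of 6 Fc receptors 1, *Fcgr4*, was past 2-fold and 5 were above 0 in both (medians 0.50 and 0.45). Of 7 scavenger and resident receptors measured, 1, *Mrc1*, was past 2-fold, a call that ended under the alternatives given above (medians 0.57 and -0.03). Resident markers such as *Cd163* and *Lyve1* had 0 UMIs in these cells, *Timd4* 9 and 2, and *Folr2* 20 and 14. Of 6 matrix metalloproteases and inhibitors 1, *Mmp9*, was past 2-fold and 5 were above 0 in both (medians 0.19 and 0.23). *Mmp12*, the macrophage elastase, was higher by 0.69 (0.63 to 0.74) and 0.28 (0.20 to 0.36), while *Mmp14* was at 0.09 and 0.17 and *Mmp19* at -0.06 and 0.01. Outside the rule, *Mmp9* was thus the only one of the 6 past 2-fold in both libraries.

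Of 20 CC and CXC chemokines 4 were past 2-fold higher and 1 lower, with 9 above and 7 below 0 in both (medians 0.14 and -0.05). Of all genes 0.483% were higher and 0.136% lower. Of the 4, *Ccl7* (-0.145 with a 4-gene score of 20 or more and -1.76 after thinning to 1000 UMIs), *Ppbp* (0.912 after thinning to 2000) and *Cxcl9* (0.23 without the richest cell of each group) did not stay past 2-fold in WT. *Cxcl2*, a neutrophil chemoattractant, was at 0.01 and -0.16. Of 10 genes of prostaglandin synthesis and response none was past 2-fold in both (medians 0.52 and 0.21), and *Ptgs1*, the constitutive cyclooxygenase, came nearest at 1.00 (0.81 to 1.19) and 1.15 (0.90 to 1.42). *Ptgs2*, the inducible one, was at 0.28 and 0.07, and *Alox5ap*, of leukotriene synthesis, at -0.91 and -0.86. Of 16 genes of lipid handling and *Trem2* none was past 2-fold (medians 0.05 and 0.00), and of 20 cathepsins and lysosomal genes none (0.08 and 0.10), with *Ctsl* the farthest of those named here at 0.70 and 0.69. Among 13 genes of matrix, coagulation and adhesion *Ecm1* was past 2-fold higher and *F10* lower, both inside the range under several alternatives, and *Fn1*, fibronectin, was just inside at -0.98 and -0.94. *Spp1*, osteopontin, was at -0.76 and -0.64.

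Of 17 genes of glycolysis and hypoxia 11 were below 0 and 3 above 0 in both libraries, none past 2-fold (medians -0.25 and -0.18). Of all genes 36.1% were below 0 in both. Of 12 cell cycle genes 7 were below 0 and 1 above, again none past 2-fold (medians -0.35 and -0.78). *Mki67*, a proliferation marker, was at 0.26 (-0.22 to 0.73) and 0.49 (-0.21 to 1.23), so no difference in it was detectable at this depth, while *Hmgb2* was at -0.80 and -0.63.

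**Figure D3:**
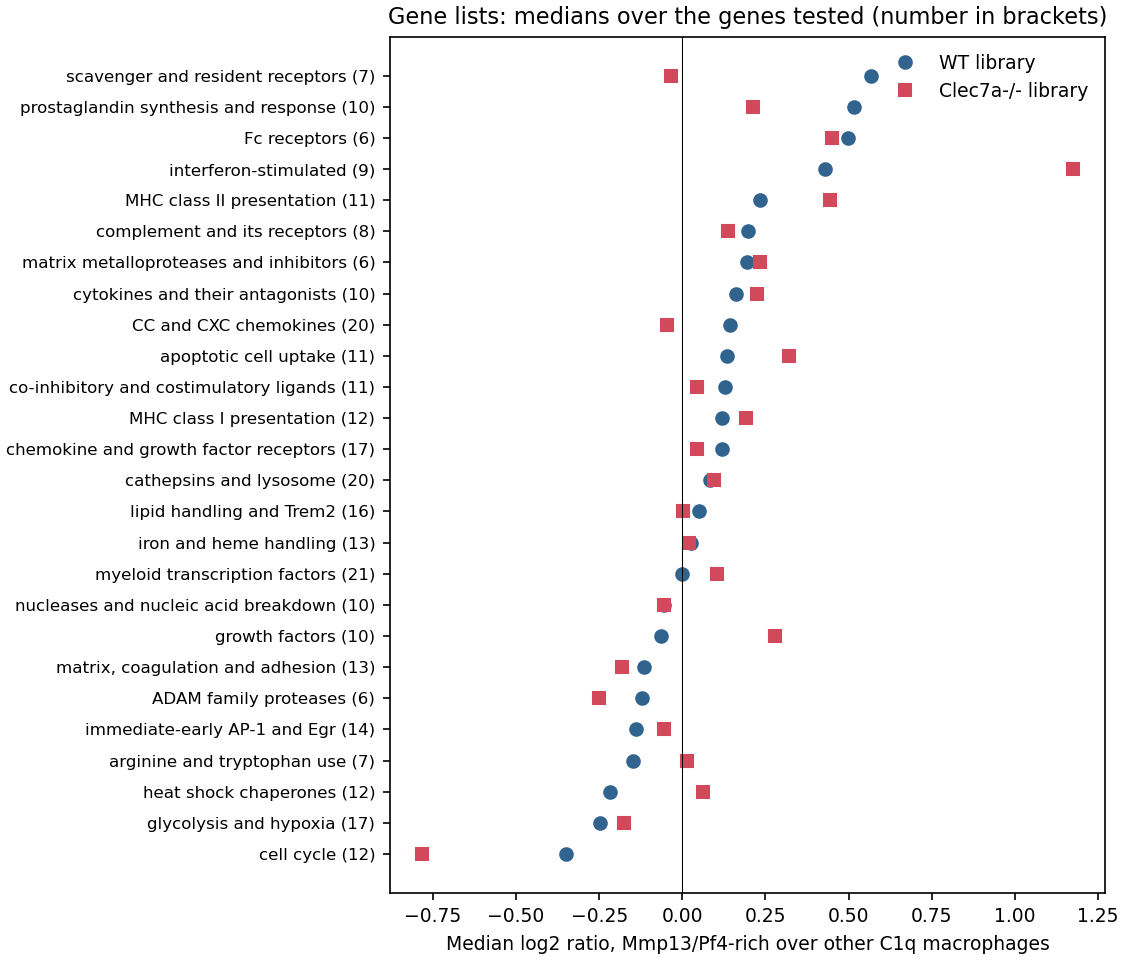
Median log2 ratio of *Mmp13*/*Pf4*-rich over other C1q macrophages (x axis) for each gene list (y axis, number of genes measured in brackets), circles for WT and squares for *Clec7a*-/-. Medians run from 0.57 for scavenger receptors to -0.35 for cell cycle genes in WT, and those of the interferon-stimulated and scavenger lists lie far apart between the libraries.

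Markers of other cell types differed in how far they were present in the *Mmp13*/*Pf4*-rich macrophages. The neutrophil and platelet lists, led by *Mmp9* and *Ppbp*, stood above the other C1q macrophages, at 1531 and 1274 CPM against 795 and 728 and at 291 and 189 against 54.3 and 14.4. The higher sum of the neutrophil list rested on *Mmp9*. Of 4 neutrophil markers measured, *Mmp9* alone had a ratio above 0 in both libraries, and 2 were below 0 in both (medians -0.40 and 0.17). Endothelial markers also stood above the other C1q macrophages, at 59.4 and 67.6 against 44.8 and 34.4, and against 56.0 and 36.7 outside the C1q macrophages. The 8 monocyte markers summed to 97.4 and 119 CPM, against 185 and 194 in the other C1q macrophages and 1336 and 1052 in the barcodes outside them. The 10 dendritic cell markers summed to 69.1 and 92.9, against 189 and 162 in the other C1q macrophages and 1806 and 3891 outside. Both lists were thus lower than in the other C1q macrophages, as were *F10*, of the monocyte list, *Ccr7*, of the dendritic cell list, and *Ccl17*. B or plasma cell markers summed to 55 and 28 UMIs, mast cell markers to 24 and 8, epithelial markers to 31 and 19, fibroblast markers to 4 and 2 and eosinophil markers to 19 and 15. The endothelial list summed to 147 and 107 UMIs, of which *Pecam1*, also made by myeloid cells, gave 136 and 101. No *Mmp13*/*Pf4*-rich macrophage was called a doublet by Scrublet, which called 0 WT and 1 *Clec7a*-/- barcode in all and at that rate cannot be taken to have worked. The barcodes with the highest doublet scores, cut at 5% with ties kept (6% of WT and 5.42% of *Clec7a*-/- barcodes), held 20 and 24 of these cells, or 6.08% and 9.84% of them, against 9.37% and 6.99% of the other C1q macrophages. The part of other cells in the results above was not tested beyond these values.

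The *Clec7a*-/- library was then set against the WT library within the *Mmp13*/*Pf4*-rich macrophages, summed to 1582833 and 2474904 UMIs. The rule's genes differed in both directions: *Mmp13* was lower in *Clec7a*-/-, at a log2 ratio of -0.33 (-0.42 to -0.24), and *Adamdec1* at -0.26 (-0.39 to -0.12), while *Pf4* was higher by 0.48 (0.36 to 0.59) and *Dnase1l3* by 0.37 (0.26 to 0.47). *Apoe* stood at 5711 CPM in WT and 8944 in *Clec7a*-/-, higher by 0.65 (0.61 to 0.68). The same ratio was 0.63 in the other C1q macrophages and -0.55 in the barcodes outside them.

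Of 4650 genes with 100 UMIs or more in these cells, 15 (0.323%) were past 2-fold higher and 20 (0.43%) past 2-fold lower in the *Clec7a*-/- library. The counting interval excluded equality for all 35. A ratio past 2-fold on 100 UMIs or more all but ensures this, so it is no separate evidence. Under every alternative run, 9 of the 15 and 4 of the 20 kept ratios past 2-fold. The median ratio over all genes was -0.02. Of the 15 higher genes, 6 were also past 2-fold higher in the other C1q macrophages and 10 had the same sign there. Of the 20 lower genes, 7 were past 2-fold lower and 16 had the same sign. The shares of all 4650 genes with the same sign, or past 2-fold, in both kinds of C1q macrophage were not counted. These counts are therefore a description, without a background to set them against.

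Differences of both kinds of C1q macrophage included *Dpys*, an enzyme of pyrimidine breakdown, with 99 UMIs in WT and 272 in *Clec7a*-/- (log2 ratio 2.10, 1.77 to 2.45, and 2.35 in the other C1q macrophages). *Hebp1*, a heme-binding protein, had 238 and 496 UMIs (1.70, 1.48 to 1.93, and 1.75). *Klra17*, of the Ly49 receptor family, had 41 and 95 (1.85, 1.31 to 2.42, and 2.66). *Tmem267* had 160 and 27 UMIs (-1.90, -2.57 to -1.33, and -3.43) and *Eps8*, an actin regulator, 161 and 29 (-1.81, -2.45 to -1.25, and -1.63). In the barcodes outside the C1q macrophages *Dpys*, *Hebp1* and *Klra17* were higher too, by 2.50, 4.14 and 2.94, and *Tmem267* was lower, at -3.22. These 4 genes therefore differed the same way in all the cells measured, within and outside the C1q macrophages. *Klra17*, *Hebp1* and *Eps8* lie on chromosome 6, as does *Clec7a*. Of 6 listed neighbours of *Clec7a* with enough UMIs, none was past 2-fold, with 3 above and 3 below 0 (median 0.04). That list did not hold *Klra17*, *Hebp1* or *Eps8*, so it does not describe the whole region. The genes past 2-fold on chromosome 6 were not counted against all genes of that chromosome.

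Ratios that were larger than in the other C1q macrophages, a difference that was not tested, included those of *Hspa1a* and *Hspa1b*, near-identical copies of the inducible heat shock protein HSP70 between which reads cannot be split with confidence. *Hspa1a* had 284 UMIs in WT and 784 in *Clec7a*-/- (2.11, 1.91 to 2.31, against -0.20 in the others), and *Hspa1b* 199 and 693 (2.44, 2.22 to 2.68, against -0.53). After thinning to 2000 UMIs their ratios were 1.04 and 0.879. *Hspa1a* was found in 46 WT and 58 *Clec7a*-/- cells, and *Hspa1b* in 47 and 62. The 10 richest cells held 78.9% and 67.0% of the *Hspa1a* UMIs, and 70.4% and 70.0% of the *Hspa1b* UMIs. Both levels thus rested on a minority of the cells. *Lyz1*, a lysozyme of Paneth cells with the near-identical copy *Lyz2*, had 30 and 362 UMIs (4.22, 3.70 to 4.83), but 3 *Clec7a*-/- cells held 304 of the 362 (0.72 in the others). *Igf1*, insulin-like growth factor 1, had 82 and 158 (1.59, 1.20 to 1.99, against 0.47, and 0.933 after thinning to 1000 UMIs). *Apol7c* had 112 and 235 (1.71, 1.38 to 2.05, against -0.68). *Cxcl10*, an interferon-induced chemokine, was higher by 1.54 (1.11 to 1.99, against 1.07). *Pla2g2d* was higher by 2.03 (1.53 to 2.56), but by more in the other C1q macrophages, 4.70 (2.60 to 10.6), on 1 and 20 UMIs.

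Among the genes lower in *Clec7a*-/-, *Mfge8*, a bridging protein for uptake of apoptotic cells, had 1231 UMIs in WT and 318 in *Clec7a*-/- (-1.31, -1.49 to -1.13, against -0.64 in the other C1q macrophages and 1.06 outside them). *Il10*, the regulatory cytokine of gut macrophages, had 445 and 111 UMIs (-1.35, -1.67 to -1.06, against -0.70). Its transcripts sat in 41 and 36 cells, and 1 WT cell held 102 of them. Without the richest cell of each library the ratio was -1.20. Thinning to 1000 and 2000 UMIs gave -0.85 and -0.725, and a mean over cells gave -0.92. *Ccl5*, a chemokine for T cells, had 87 and 19 (-1.52, against -0.98, and -0.668 with a 4-gene score of 20 or more) and *Retnlg*, a neutrophil transcript, 157 and 39 (-1.35, against -2.31, and -2.91 outside the C1q macrophages), a ratio that was -0.355 with the *S100a8* and *S100a9* level under 40. The scavenger receptor *Cd36* was at -1.13 against -0.80, and inside the 2-fold range under 4 alternatives, nearest 0 at -0.644 after thinning to 2000 UMIs. *Spsb1*, *Samd11*, *Fbxl5* and *Cpq* were at -1.32, -1.47, -1.36 and -1.30, and thinning or a mean over cells brought *Samd11* to -0.964 and *Cpq* to -0.408, as a 4-gene score of 5 or more brought *Spsb1* to -0.984.

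**Figure D4:**
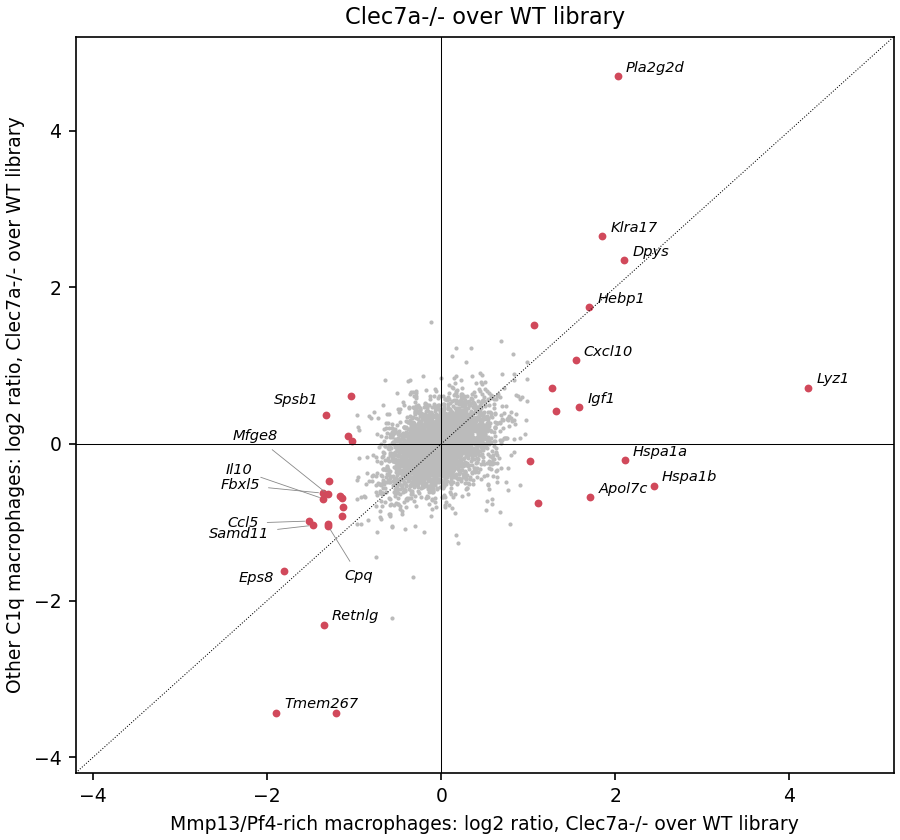
Log2 ratio of the *Clec7a*-/- over the WT library in the *Mmp13*/*Pf4*-rich macrophages (x axis) and in the other C1q macrophages (y axis), 1 point per gene, with genes past 2-fold in the former in red. *Dpys*, *Klra17*, *Hebp1*, *Eps8* and *Tmem267* lie far from 0 on both axes, and *Lyz1*, *Hspa1a* and *Hspa1b* on the x axis only.

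By list, 11 of 12 heat shock chaperones were above 0 in *Clec7a*-/- over WT (median 0.20), with *Hspa1a* and *Hspa1b* the 2 past 2-fold. Of all 4650 genes 46.8% were above 0 and 0.323% past 2-fold higher. Of 12 iron and heme genes none was past 2-fold and 9 were below 0 (median -0.27). *Hmox1*, heme oxygenase 1, stood at 8668 and 5520 CPM, a ratio of -0.65 (-0.69 to -0.62, against -0.57 in the other C1q macrophages). Of 16 chemokines 1, *Cxcl10*, was past 2-fold higher and 2 lower, *Ccl5* and *Cxcl9*. The value of *Cxcl9*, -1.21, turned to 0.75 with 500 to 6000 detected genes and to 0.166 after thinning to 2000 UMIs. *Ptgs2* stood at 325 and 176 (-0.88, -1.09 to -0.69, against -0.67), and *Vegfa*, the vascular growth factor, at 422 and 250 (-0.75, -0.92 to -0.59, against -0.80). Both were thus lower in the 2 kinds of C1q macrophage, and the difference between the kinds was not tested. Of 11 MHC class II genes none was past 2-fold (median -0.07).

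The *Mmp13*/*Pf4*-rich macrophages were further divided by which of the 4 genes had the most UMIs in a cell, a division chosen after values were seen. *Mmp13* led in 129 WT cells (39.2%, 33.9 to 44.7%) and 72 *Clec7a*-/- cells (29.5%, 23.9 to 35.7%). *Pf4* led in 56 (17.0%, 13.1 to 21.5%) and 67 (27.5%, 22.0 to 33.5%), *Adamdec1* in 56 (17.0%) and 34 (13.9%), and *Dnase1l3* in 65 (19.8%) and 50 (20.5%). The remaining 23 and 21 cells were tied. These shares rest on the rule's own genes in 1 library each and were not compared further.

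The *Pf4*-led and *Dnase1l3*-led cells, 1 of 6 possible pairs and also picked after values were seen, differed past 2-fold in both libraries in 70 of 4641 genes, 32 (0.69%) higher and 38 (0.819%) lower in *Pf4*-led cells. The *Pf4*-led and *Adamdec1*-led cells differed in more, with 55 higher and 32 lower, and the other 4 pairs in 10 to 33 higher and 3 to 26 lower. Among the higher were *Ppbp* at 606 and 333 CPM against 70.1 and 20.5 (log2 ratio 3.10, 2.62 to 3.64, and 3.94, 3.01 to 5.26). *Spp1* stood at 1333 and 768 against 393 and 261 (1.76 and 1.55), and *Trem2*, a lipid-sensing receptor, at 377 and 302 against 131 and 118 (1.52 and 1.35). *Atp6v0d2*, of the proton pump, *Fcrls* and *Lgals1*, galectin-1, were higher too, by 2.48 and 2.17, 1.29 and 1.84, and 1.34 and 1.07.

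Among the lower genes were class II chains. *H2-Ab1* stood at 4957 and 5024 CPM in *Pf4*-led against 10693 and 11800 in *Dnase1l3*-led cells (-1.11, -1.18 to -1.04, and -1.23, -1.30 to -1.16). The *Mmp13*-led cells stood at 10610 and 10599 and the *Adamdec1*-led cells at 12797 and 13016, so the *Pf4*-led cells were the low ones in both libraries. *H2-Aa* and *H2-Eb1* were at -1.07 and -1.14 and at -1.41 and -1.26, and these 3 were the only ones past 2-fold of 11 class II genes (medians -0.53 and -0.88). Of 6 interferon-stimulated genes 3 were past 2-fold lower (medians -1.14 and -1.05). *Cxcl9* stood at 6.73 and 4.41 against 110 and 25.6 (-3.81, -6.34 to -2.41, and -2.28, -5.77 to -0.31), and *Ccl24*, an eosinophil chemoattractant, was at -2.46 and -1.90. In WT 51 of the 92 *Cxcl9* UMIs sat in 1 cell, which by these levels was *Dnase1l3*-led, so the WT ratio rests largely on that cell. *Rsad2* had 0 UMIs in the WT *Pf4*-led cells. *Mrc1* did not follow the division, at 0.02 (-0.38 to 0.41) and -0.03 (-0.53 to 0.47).

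*Il10* was highest in the *Mmp13*-led cells in WT. In *Clec7a*-/- the *Adamdec1*-, *Mmp13*- and *Pf4*-led cells lay close together and are not ranked here. The *Mmp13*-led cells stood at 385 CPM in WT, with 377 of the 445 UMIs, and at 86.5 in *Clec7a*-/-. The 10 richest WT cells held 82.2% of the 445 UMIs, so the order in WT rests on few cells. The *Pf4*-, *Adamdec1*- and *Dnase1l3*-led cells stood at 6.73, 66.5 and 71.8 in WT and at 81.6, 95.9 and 35.8 in *Clec7a*-/-. These differences were not tested.

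**Figure D5:**
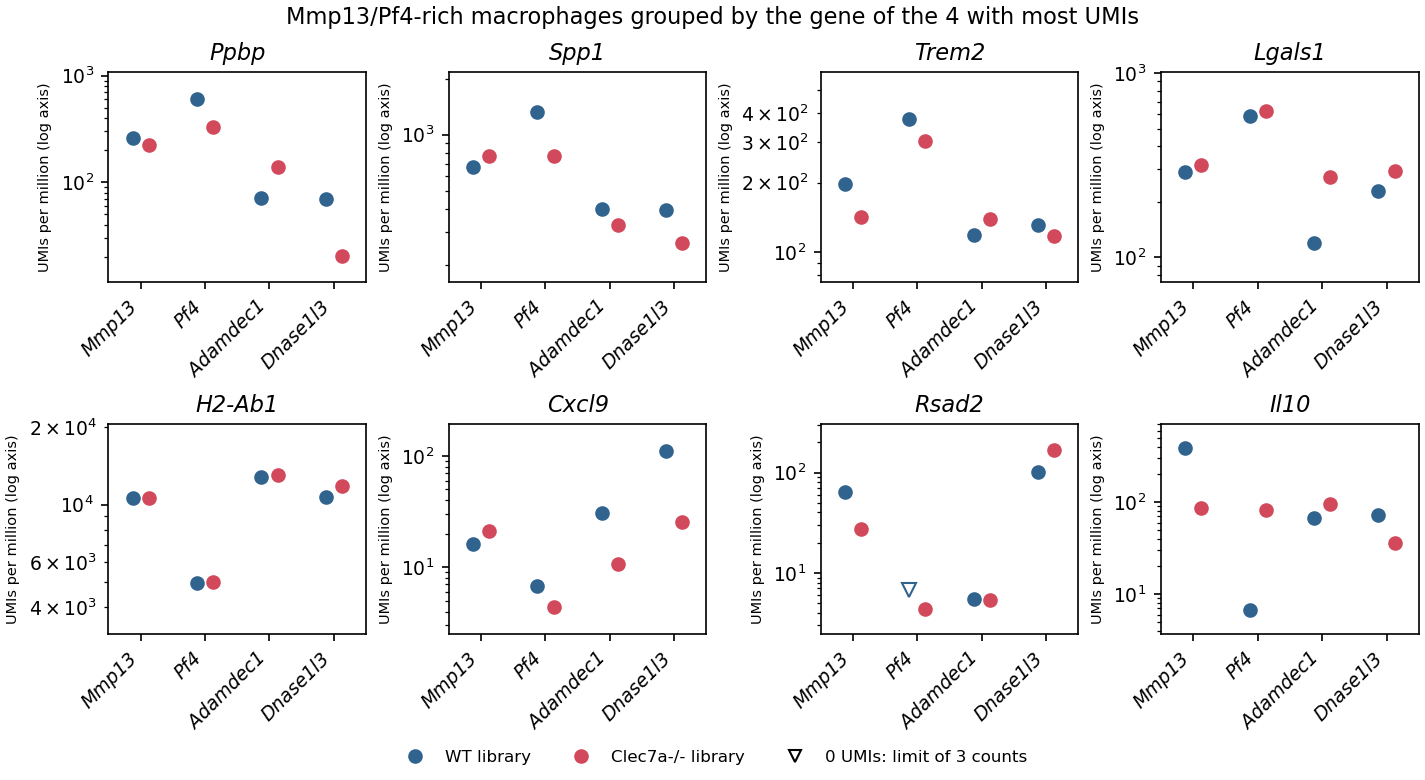
Level of 8 genes (y axes, CPM, log scales) in the *Mmp13*/*Pf4*-rich macrophages led by each of the 4 genes (x axes), with 1 point per library and an open triangle for 0 UMIs, drawn at the limit of 3 counts. *Ppbp*, *Spp1* (by 768 against 766 CPM in *Clec7a*-/-), *Trem2* and *Lgals1* are highest in both libraries, and *H2-Ab1* is lowest in both, in the *Pf4*-led cells.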

How the data were processed

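The authors deposited, for each library, a matrix of UMI counts per gene and cell barcode; per the labels the libraries were made with a SeekOne MM 3′ kit, although another label names 10x Genomics, and the submitters' processing notes name Cell Ranger 2.1.1 and mm10. Of 32285 gene identifiers, 32158 were found in GENCODE M21 (GRCm38), which gave the coordinates. The study's own filter allowed 5% mitochondrial UMIs, and the rule used here 10%. No doublets were removed, since no such step is stated.

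Counts were summed over the cells of each group and library and given per 1000000 UMIs (CPM). Log2 ratios had 0.5 UMIs added to each sum, genes needed 100 UMIs, and a gene counted as past 2-fold from a log2 ratio over 1 (in both libraries for the comparisons within a library). Named genes were the rule's genes and the marker lists, up to 15 genes in each direction past 2-fold in both libraries, ranked by the smaller of their 2 ratios, the 10 highest and 10 lowest between libraries, and the most abundant or most different members of the pathway lists. Others, among them *Il18bp*, *Cp*, *Ecm1*, *Ptgs1*, *Vegfa* and the genes of the *Pf4*-led cells, were named after their values were seen. T cells were barcodes with 10 or more UMIs per 10000 of T cell receptor and CD3 transcripts and a C1q level under 20. Thinning drew 1000 UMIs per cell (seed 1). The members, gene lists and comparisons were chosen with earlier results of these data known. With 1 library per genotype no p-value was computed. On simulated counts the 95% intervals held the true ratio for 95.75% of 5385 genes (*Mmp13*/*Pf4*-rich over other, WT) and 95.59% of 4540 genes (between libraries). Those counts were Poisson draws, the model that the intervals assume, with no spread between cells. The result checks the computation and not the coverage in these cells. Alternatives changed the filters, thresholds, thinning, scaling (edgeR 4.0.16 TMM, R 4.3.3), UMI minimum, pseudocount and doublet scores. Python 3.11.15, numpy 2.4.6, pandas 2.3.3, scipy 1.17.1, scanpy 1.11.5 (Scrublet) and matplotlib 3.10.9 were used.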

Additional observations from a re-analysis of the deposited data

Results flagged for a closer look

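The *Hspa1a*, *Hspa1b*, *Gm26917* and *Whamm* genes stood apart because the *Mmp13*/*Pf4*-rich macrophages lay past 2-fold on opposite sides of the other C1q macrophages in the 2 libraries; with 1 library per genotype these differences between log2 ratios were not tested. *Hspa1b* was at -1.90 in WT and 1.07 in *Clec7a*-/-, a difference of 2.97. *Hspa1a*, its near-identical copy, was at -1.10 and 1.21, a difference of 2.31. In each library the 10 richest *Mmp13*/*Pf4*-rich macrophages held most of the UMIs of both copies in these cells. *Gm26917*, a gene of unnamed function, was at -1.74 and 1.18, a difference of 2.92, on 45 UMIs against 186 in WT and 50 against 22 in *Clec7a*-/-. *Whamm*, a regulator of actin nucleation, went the other way, at 1.39 and -1.08, a difference of -2.47, on 54 against 25 and 11 against 24 UMIs.

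Barcodes outside the limits on detected genes and mitochondrial UMIs also met the 3 scores. There were 23 of 320 such barcodes in WT, 4 over the mitochondrial limit and 19 over the gene limit, and 15 of 378 in *Clec7a*-/-, 9 and 6. They entered no comparison.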

How the results depend on the processing

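For the share of members among barcodes kept (members being the *Mmp13*/*Pf4*-rich macrophages), the value was lower in *Clec7a*-/- under all alternatives run but thinning to 2000 UMIs, where the log2 ratio was 0.0508. For the share of members among C1q macrophages it lay between -0.0281 (thinned to 1000 UMIs) and 0.195 (no more than 5% mitochondrial UMIs). For the 32 higher than in the other C1q macrophages, thinning to 1000 and 2000 UMIs gave 6 and 7, comparison with C1q macrophages without a UMI of the 4 genes gave 64, and a minimum of 20 UMIs gave 96. For the 9 lower, these gave 3, 2, 30 and 60, a 4-gene score of 20 or more gave 24, a C1q level of 10 or more 15, removal of the top 5% of doublet scores 14, and a mean over cells 24. Between libraries, the 15 higher became 8 and 5 after thinning, 32 as a mean over cells and 174 with a minimum of 20 UMIs. The 20 lower became 6, 5, 41 and 158. Thinned cells were chosen anew by the rule and held fewer UMIs, so that genes also fell below the minimum of 100 UMIs. *C6*, for one, left the count after thinning to 1000 UMIs although its ratios there were 3.1 and 5.02. Depth, membership and the genes measured cannot be told apart under thinning. More genes are measured with the lower minimum, and the cause of the other shifts was not tested. TMM scaling kept all 32, 9, 15 and 20 genes. *Ccl7* in WT reversed to -0.145 with a 4-gene score of 20 or more and to -1.76 after thinning to 1000 UMIs, and *Ccl17* in *Clec7a*-/- to 1.06 with a C1q level of 40 or more. After thinning to 1000 UMIs *Cxcl9* and *Ifi203* in WT reversed to -0.317 and -1.27, and after thinning to 2000 *Cxcl9* in WT to -0.37 and *Gpr171* in *Clec7a*-/- to -0.479. Between libraries *Cxcl9* reversed to 0.75 with 500 to 6000 detected genes and 0.166 after thinning to 2000 UMIs, and *Hes1* to -0.554 after the latter. No other direction reversed among the 41 genes past 2-fold within the libraries and the 35 between them. *Ifi203*, *Gpr171* and *Hes1* were named after their values were seen. Of the single-gene values under the alternatives, 1521 moved by less than counting error, 194 by more and 7 reversed within the libraries, and 641, 56 and 3 between them. The minimum of 20 UMIs gave 82 of the 1521 and 35 of the 641, and removal of Scrublet calls gave as many. Neither of these alternatives could change a ratio, so this tally overstates how stable the values were. Leaving out barcode sequences found in both libraries, and the richest cell of each gene, were chosen after seeing the data. No paired analysis was possible because each genotype was 1 library and no result came from a test. Depth limits the rest, since genes near the minimum of 100 UMIs have wide intervals.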

Other observations

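Other gene groups lay close to the other C1q macrophages, by values that were not tested. Of 21 myeloid transcription factors none was past 2-fold in both libraries, with medians of 0.00 in WT and 0.10 in *Clec7a*-/-, and *Maf*, a factor of resident macrophages, was at 0.73 (0.39 to 1.07) and 0.55 (0.16 to 0.96). Of 12 genes of MHC class I presentation and 11 of apoptotic cell uptake none was past 2-fold, with medians of 0.12 and 0.19 and of 0.13 and 0.32. Of 10 cytokines and their antagonists 1, *Il18bp*, was past 2-fold higher in both libraries (0.483% of all genes), 6 were above 0 in both and 1 below 0 in both (medians 0.16 and 0.23). *Il1b* was at -0.01 (-0.11 to 0.08) in WT and 0.40 (0.25 to 0.55) in *Clec7a*-/-, and *Tnf* at -0.40 (-0.63 to -0.18) and 0.16 (-0.13 to 0.45). Of the 6 ADAM proteases outside the rule none was past 2-fold, with medians of -0.12 and -0.25.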
